A study of Mus musculus with 16 samples.

Results

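The libraries described here are the CD44+ and CD44- fractions of mouse lung alveolar type 2 (AT2) cells in the columns of the deposited count table that carry the prefix R26. They were chosen by column name, without reference to any measured value, and make up 8 of the 16 libraries of the series: 4 CD44- and 4 CD44+, 1 of each for the column numbers 1, 2, 7 and 8. The numbers are read here as animals. The other 8 libraries carry the prefix OG and the numbers 3, 5, 6 and 7. Cells were depleted of CD45+ and CD31+ cells and sorted live by flow cytometry, per the labels' protocols. The AT2 gate took Epcam+ cells with high CD200 that lacked CD104, CD45 and CD31, and it was split by CD44. The sample titles name WT and SPC mutant lungs (genotype labels SP-C WT and SP-C Mutant), and the treatment label OG TMX stands on all 16 samples, so both groups compared here share it. No label ties the prefix R26 to WT: that reading is an inference, and the groups are called R26 CD44- and R26 CD44+. The comparison within R26 does not depend on it. The labels used here give no age, sex, strain, recombinase driver or cell number per library, so p-values measure the spread between these libraries.

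AT2 cells make pulmonary surfactant, a mixture of lipids and surfactant proteins that they store in lamellar bodies, and they divide and differentiate into the flat, gas-exchanging alveolar type 1 (AT1) cells. During repair, cells pass through a transitional state known for Krt8, Krt19, Cldn4 and Sfn. NKX2-1 and forkhead factors sustain surfactant genes, FGF receptor signalling sustains AT2 identity through ETV5, and YAP and TAZ, which act through TEAD factors, favour AT1 fate. CD44 is the main cell-surface receptor for hyaluronan. Leukocytes and mesenchymal cells carry it as well as some epithelial cells.

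Total counts were 13395443 to 16341755 in CD44- and 9022471 to 11024351 in CD44+ libraries. Of 27179 gene identifiers 14555 passed the filter on low counts and were tested. Levels are given as CPM, counts scaled to a common library size after TMM adjustment, always in the order animals 1, 2, 7 and 8, and differences as log2 fold changes ± SE of CD44+ over CD44- cells. A gene was called, and is said to have risen or fallen, when its adjusted p (edgeR quasi-likelihood test, Benjamini-Hochberg) was under 0.05. That test left out the pairing by animal. A fit with the animal as a replicate block, which uses the pairing, called more genes (3127 higher and 2158 lower, against 2646 and 1353). So a gene given as not called was not called without pairing. The first principal component, with 75.1% of the variance, placed all CD44+ libraries on one side and all CD44- libraries on the other. One library stood apart: the CD44+ library of animal 2 was nearer to CD44- cells in AT2 genes, with 6.79% of its counts in Sftpc, against 4.68% to 4.94% in the other CD44+ and 6.71% to 7.89% in the CD44- libraries. Results without it are given where they differ by more than 1.5 times. Cells were sequenced in bulk, so fewer cells of a type and less RNA per cell cannot be told apart. Markers of other cell types also moved with the sort: the summed fibroblast list was 2058 to 2226 CPM in CD44- and 3908 to 6176 CPM in CD44+ libraries, the endothelial list 159 to 191 CPM in CD44- and 332 to 413 CPM in CD44+ libraries, and the B and plasma cell list 653 to 753 CPM in CD44- and 2097 to 4318 CPM in CD44+ libraries. The fibroblast sum also holds Plin2 and Ces1d, which AT2 cells express too. The B and plasma cell sum holds Sdc1 and Xbp1, which epithelial cells also express. In CD44- libraries the defining fibroblast genes Col1a1 (19.8 to 27.1 CPM) and Col3a1 (27.2 to 41.5 CPM) were small parts of the fibroblast sum. The part of these other cell types in each of the results was not tested.

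The genes of the sort antigens were compared first. Cd44 (gene 12505, chromosome 2, 102811141 to 102901669 in mm10) was at 308, 304, 314 and 318 CPM in CD44- and 488, 371, 537 and 412 CPM in CD44+ libraries. Every CD44+ library lay above every CD44- library, animal 7 highest and animal 2 lowest, and the log2 fold change was 0.54 ± 0.09 (adjusted p = 7.36e-04). Cd200, the antigen gated high, was at 162, 172, 159.8 and 179 CPM in CD44- and 117, 133, 130.1 and 137 CPM in CD44+ libraries and fell (log2 fold change -0.38 ± 0.06, adjusted p = 2.28e-04). Epcam, the epithelial adhesion molecule of the gate, was at 127, 127, 121 and 120.4 CPM in CD44- and 124, 121, 129 and 114 CPM in CD44+ libraries, with overlapping groups (log2 fold change -0.02 ± 0.06, adjusted p = 0.836). The antigens gated out were higher in CD44+ cells. Itgb4, which encodes CD104, was at 6.46, 6.80, 6.39 and 6.02 CPM in CD44- and 18.6, 8.99, 11.8 and 14 CPM in CD44+ libraries (log2 fold change 1.06 ± 0.18, adjusted p = 4.39e-04). Pecam1, which encodes CD31, was at 4.64, 3.99, 2.26 and 3.81 CPM in CD44- and 18.3, 14.9, 19.1 and 17.2 CPM in CD44+ libraries (log2 fold change 2.26 ± 0.18, adjusted p = 2.99e-07). Ptprc, the gene of the leukocyte antigen CD45, stood at 0.152, 0.156, 0.188 and 0.123 CPM in CD44- and 4.92, 14.8, 4.56 and 6.28 CPM in CD44+ libraries, from 9 counts in all CD44- and 306 in all CD44+ libraries, with animal 2 highest. It passed the low-count filter only through its CD44+ level.

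CD44+ cells had many more strong increases than strong decreases. Of the 14555 genes tested 2646 rose (18.2%) and 1353 fell (9.3%). These 2 shares are the background for every list count given below. The groups did not overlap for 2336 of the 2646 genes that rose and 1063 of the 1353 that fell. These were 16% and 7.3% of all genes tested. The median called increase was 1.52 and the median called decrease -0.31 on the log2 scale. At least 2-fold changes were called for 1768 genes higher (12.1%) and 17 genes lower (0.117%), and 347 (2.38%) were at least 8-fold higher. With the animal as a replicate block 3127 genes rose (21.5%) and 2158 fell (14.8%), all 1353 decreases among them. In 459 tested genes every CD44+ library and no CD44- library reached the low-count cutoff (0.819 CPM before TMM adjustment). They passed the filter through their CD44+ level alone, and 449 of them were called. They had to differ, and they stand in many of the list counts given here. List members said to pass only through CD44+ libraries are counted in this strict sense. Genes with some CD44- libraries at the cutoff, such as Ccnb1, Cenpe, Gli1 and Slc7a11, also needed CD44+ libraries to pass and are not among the 459. The 459 included 4 members of the chemokine list and 3 each of the interferon, integrin and lung transcription factor lists. They also held 2 each of the Wnt, p53, fatty acid, hyaluronan, mesenchymal factor and protease lists. The club, basal, immediate early, TGF-beta, xenobiotic, tight junction, S100, collagen and ion transport lists had 1 each. For other lists with such members the number is given with their counts. Against a 1.5-fold minimum 1553 rose and 7 fell. Without the CD44+ library of animal 2, 3023 rose and 1962 fell. Without both libraries of animal 1, 2062 rose and 647 fell.

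**Figure D1:**
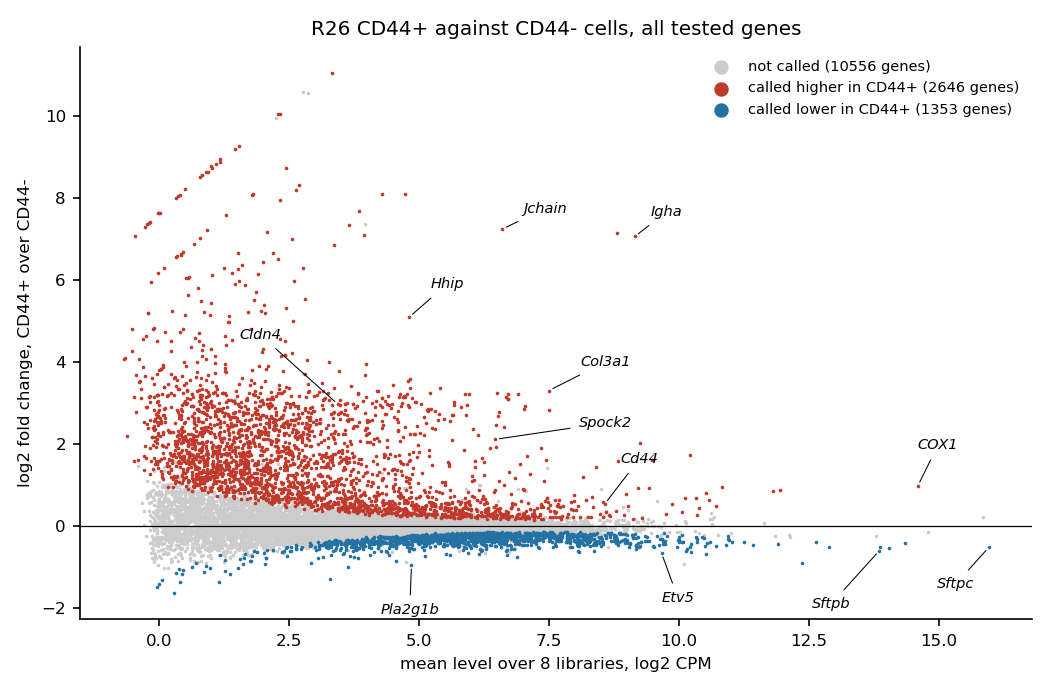
Each point is 1 of the 14555 tested genes, with its mean level over the 8 libraries (log2 CPM) on the horizontal axis and its log2 fold change, CD44+ over CD44-, on the vertical axis. Called genes are red where higher (2646) and blue where lower (1353). The red points reach far from 0, while the blue points form a narrow band that runs out to the surfactant genes at the right.

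Among genes with a mean of at least 4 log2 CPM and no overlap of the groups, the largest increases were in immunoglobulin genes, Hhip and matrix genes. Igha, the constant region of immunoglobulin A, was at 11.8, 10.8, 7.64 and 4.24 CPM in CD44- and 1115, 1779, 822 and 831 CPM in CD44+ libraries (log2 fold change 7.07 ± 0.46, adjusted p = 5.29e-05). Igkc, the kappa light chain, was at 9.95, 6.96, 6.14 and 2.58 CPM in CD44- and 811, 1574, 537 and 650.5 CPM in CD44+ libraries (log2 fold change 7.15 ± 0.58, adjusted p = 1.79e-04). Jchain, which joins the subunits of polymeric immunoglobulins, was at 1.90, 1.41, 1.32 and 0.615 CPM in CD44- and 206, 278, 140.1 and 158 CPM in CD44+ libraries (log2 fold change 7.25 ± 0.38, adjusted p = 1.14e-05). Animal 2 was highest for all 3, and no CD44- library came near any CD44+ library. Further log2 fold changes among the largest were Hhip 5.10, the extracellular matrix genes Fbln1 3.60, Lama2 3.44, Col3a1 3.30 and Eln 3.24, the gelatinase Mmp2 3.37, the IGF carrier Igfbp4 3.54, and the adhesion molecule Vcam1 3.29. The largest decreases were much smaller. Pla2g1b, a secreted phospholipase A2, was at 39.2, 41.8, 39.7 and 29.9 CPM in CD44- and 18.3, 25.8, 18.2 and 15.8 CPM in CD44+ libraries (log2 fold change -0.95 ± 0.14, adjusted p = 2.88e-04). Other large decreases were the cadherin Cdh16 -0.68, the aspartic protease Napsa -0.68, which processes surfactant protein precursors, and the chitinase Chia1 -0.64.

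AT2 identity and surfactant genes were lower in CD44+ cells. Of 31 list members, all tested, 27 fell and 0 rose, where 9.3% of all genes fell; the members' log2 fold changes ran from -0.70 to -0.20 with a median of -0.47, beside -0.01 over all tested genes. Without the CD44+ library of animal 2, 29 fell. The 4 members that were not called, Pgc, Scd1, Chil1 and Foxa2, named after their values were seen, also had values below 0, from -0.32 to -0.20. With the animal as a replicate block 3 of them fell: Chil1 (log2 fold change -0.24, adjusted p = 6.77e-04), Foxa2 (-0.20, adjusted p = 0.00272) and Scd1 (-0.26, adjusted p = 0.0182). By animal the list medians were -0.57, -0.31, -0.51 and -0.53, the smallest in animal 2. The summed level of the list was 205150 to 228680 CPM in CD44- and 137730 to 194330 CPM in CD44+ libraries.

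Sftpc (gene 20389, chromosome 14, 70520941 to 70524081), which encodes surfactant protein C, was at 81476, 81049, 67701 and 71061 CPM in CD44- and 47293, 69685, 46804 and 45729 CPM in CD44+ libraries. In each animal the CD44+ library was lower, but the CD44+ library of animal 2 lay within the CD44- range, so the groups overlapped (log2 fold change -0.52 ± 0.15, adjusted p = 0.0142). Sftpb, surfactant protein B, was at 18148, 20244, 16807 and 16368 CPM in CD44- and 10704, 15692, 10251 and 10281 CPM in CD44+ libraries (log2 fold change -0.61 ± 0.14, adjusted p = 0.00335). Sftpa1, surfactant protein A, was at 17063, 18092, 16819 and 18232 CPM in CD44- and 11054, 14197, 11580 and 12096 CPM in CD44+ libraries (log2 fold change -0.52 ± 0.10, adjusted p = 8.43e-04). For both, all CD44+ libraries lay below all CD44- libraries, animal 2 closest. Slc34a2, the phosphate transporter of AT2 cells, was at 19827, 21603, 19041 and 19585 CPM in CD44- and 12404, 16757, 12947 and 12620 CPM in CD44+ libraries (log2 fold change -0.55 ± 0.11, adjusted p = 0.00136). Lamp3, a membrane protein of lamellar bodies, was at 4281, 4281, 4513 and 4647 CPM in CD44- and 2969, 3524, 3345 and 3199 CPM in CD44+ libraries (log2 fold change -0.44 ± 0.08, adjusted p = 4.27e-04). Etv5, the ETS factor downstream of FGF receptors, was at 966, 1072, 931 and 1011 CPM in CD44- and 569, 758, 593 and 597 CPM in CD44+ libraries (log2 fold change -0.66 ± 0.09, adjusted p = 3.27e-05), and Sfta2, a small surfactant-associated protein, was at 128, 135, 125 and 121 CPM in CD44- and 72.6, 99.4, 72.8 and 69.3 CPM in CD44+ libraries (log2 fold change -0.70 ± 0.10, adjusted p = 1.21e-04). In these 4 genes the groups did not overlap, and animal 2 had the highest CD44+ level in all 4. Cebpa, a factor of AT2 maturation, fell by 0.52 and Nkx2-1, the lineage factor, named after its value was seen, by 0.36 on the log2 scale.

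The promoters of 4 of these genes, which moved together, are printed to show where 1 motif chosen for each lies. They are the 250 bases before the start site from RefSeq (GRCm38.p6), written 5′ to 3′ on the strand of the gene. In Sftpb (chr6:72304360-72304609 on the plus strand) the capitals mark CTCAAG, the core of NKX2-1 sites. In Sfta2 (chr17:35649458-35649707 on the plus strand), Lamp3 (chr16:19706366-19706615 on the minus strand) and Slc34a2 (chr5:53049103-53049352 on the plus strand) they mark GGAATG, the TEAD core, or its reverse complement CATTCC. Capitals mark that motif alone, and other motifs searched can stand in lower case: Sfta2 also holds CTCAAG and Lamp3 TGTTTAC. Sftpb also holds TGANTCA, which overlaps the capitals of the CTCAAG nearer to the start site.
Sftpb: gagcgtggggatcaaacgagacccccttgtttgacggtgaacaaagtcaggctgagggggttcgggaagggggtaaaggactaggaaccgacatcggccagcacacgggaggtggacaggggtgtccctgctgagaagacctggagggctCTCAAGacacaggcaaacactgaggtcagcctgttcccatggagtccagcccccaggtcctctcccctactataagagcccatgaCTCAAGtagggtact
Sfta2: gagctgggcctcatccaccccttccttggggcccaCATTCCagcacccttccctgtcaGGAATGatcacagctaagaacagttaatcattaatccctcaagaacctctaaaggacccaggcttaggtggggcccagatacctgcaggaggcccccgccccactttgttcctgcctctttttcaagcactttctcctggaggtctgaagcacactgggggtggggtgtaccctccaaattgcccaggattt
Lamp3: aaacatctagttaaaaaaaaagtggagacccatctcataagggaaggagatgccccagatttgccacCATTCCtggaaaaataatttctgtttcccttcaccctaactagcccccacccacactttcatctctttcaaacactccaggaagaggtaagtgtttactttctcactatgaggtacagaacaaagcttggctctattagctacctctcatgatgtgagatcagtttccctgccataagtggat
Slc34a2: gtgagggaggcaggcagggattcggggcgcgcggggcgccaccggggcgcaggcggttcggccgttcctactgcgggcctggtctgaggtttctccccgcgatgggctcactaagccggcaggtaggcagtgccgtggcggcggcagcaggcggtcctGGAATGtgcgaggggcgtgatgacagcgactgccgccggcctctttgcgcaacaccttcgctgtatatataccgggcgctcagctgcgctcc
Both strands were searched. CTCAAG was found in 4 of 24 AT2 list promoters in the table (16.7%), and in 12.5% of the 10927 tested genes that had a promoter. GGAATG was found in 8 of the 24 (33.3%), beside 10.8% of all. Other lists searched had it in 1 of 23 AT1 promoters (4.35%), 3 of 27 fibroblast promoters (11.1%) and 1 of 10 hedgehog promoters (10%). TGTTTAC, a forkhead core, was found in 4 of the 24 (16.7%), beside 2.14% of all. Over all called genes the shares were close to those of the rest: GGAATG stood in 229 of 1913 promoters of called higher genes, 132 of 1069 of called lower and 815 of 7945 of not called genes. A match describes letters in this window and says nothing of binding.

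**Figure D2:**
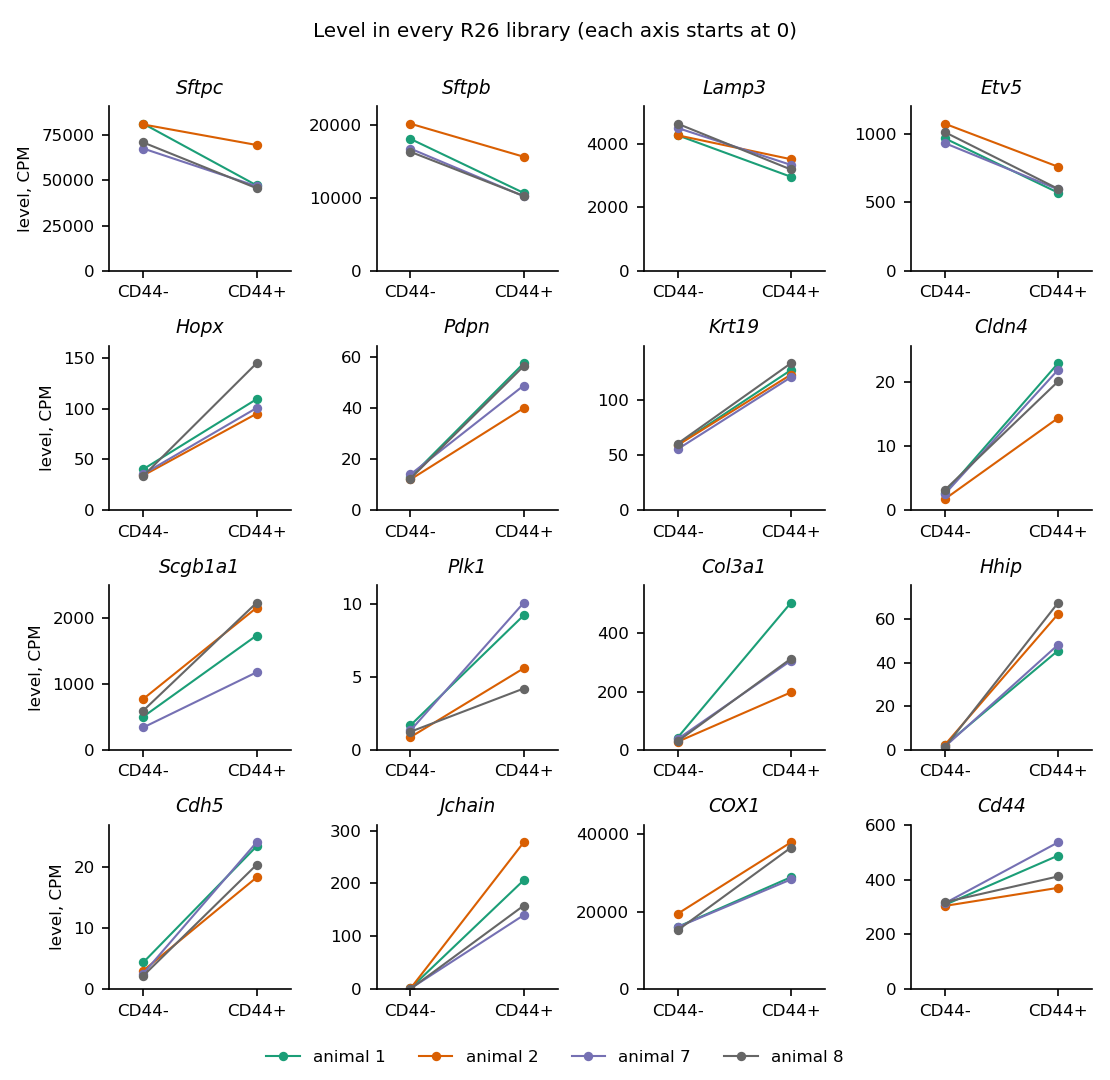
Each panel plots 1 gene's level (CPM, axis from 0) in the CD44- and the CD44+ library of each animal, joined by a line. Surfactant genes step down in every animal, least in animal 2 (orange), while AT1, transitional, mesenchymal and endothelial genes step up in all 4 animals.

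Lipid genes that supply surfactant were lower in part. In the fatty acid and phospholipid list 4 rose and 14 fell of 38 tested (median log2 fold change -0.23). Lpcat1, which makes the dipalmitoyl phosphatidylcholine of surfactant, was at 1355, 1472, 1313 and 1330 CPM in CD44- and 798, 1108, 843 and 846 CPM in CD44+ libraries (log2 fold change -0.61 ± 0.09, adjusted p = 1.58e-04), with no overlap of the groups. The acyl-CoA synthetases Acsl5 (-0.38 ± 0.06) and Acsl4 (-0.35 ± 0.07) fell, and the members that rose were Agpat4 (1.49), Elovl6 (2.70), Pcyt1b (1.79) and Slc27a3 (1.05). In this list 2 members passed the filter only through CD44+ libraries. With at least 50 counts in 4 libraries 1 member rose. In the cholesterol list 3 rose and 13 fell of 26 tested (median -0.33). Synthesis genes fell, such as Idi1 (-0.45 ± 0.09) and Dhcr7 (-0.52 ± 0.11), the last enzyme of the pathway, which was at 41.5, 40.6, 39.3 and 34.9 CPM in CD44- and 26.3, 34.8, 23.6 and 25 CPM in CD44+ libraries. Those that rose act in cholesterol efflux or receptor turnover: Abca1, a cholesterol exporter, was at 58.3, 55.3, 51.5 and 52.9 CPM in CD44- and 96.1, 80.9, 71.7 and 86.3 CPM in CD44+ libraries (log2 fold change 0.62 ± 0.08, adjusted p = 3.30e-05), beside Abcg1 (2.41) and Mylip (0.50). With the animal as a block the counts were larger: 22 fatty acid and 20 cholesterol genes fell. Without the CD44+ library of animal 2, 21 and 21 fell, and without both libraries of animal 1, 8 and 7.

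Lysosome and lamellar body genes gave 11 decreases and 2 increases among 34 tested; the increases were Psap (0.87 ± 0.08), which encodes saposins, and Lipa (2.23 ± 0.24), the lysosomal acid lipase. Of nuclear genes of the respiratory chain 0 rose and 8 fell of 32 tested, among them Ndufb5 (-0.42 ± 0.10) and Cox4i1 (-0.27 ± 0.07). Without both libraries of animal 1, 1 of them fell. The mitochondrially encoded genes moved the other way. Their list was added after the values had been seen: 12 rose and 1 fell of 15 tested, the decrease being ND4L (-0.41 ± 0.11), whose groups overlapped. COX1, a subunit of cytochrome c oxidase (gene 17708, chromosome MT, 5328 to 6872), was at 16075, 19467, 16010 and 15220 CPM in CD44- and 28893, 37877, 28309 and 36518 CPM in CD44+ libraries (log2 fold change 0.98 ± 0.12, adjusted p = 2.53e-05), and COX2 was at 1229, 1395, 1220 and 1098 CPM in CD44- and 2132, 2755, 2092 and 2619 CPM in CD44+ libraries (log2 fold change 0.96 ± 0.10, adjusted p = 4.94e-06). ND4L was at 111, 128, 114 and 90.2 CPM in CD44- and 80.4, 94.7, 69.7 and 89.8 CPM in CD44+ libraries. These genes together held 2.71% to 3.31% of counts in CD44- and 4.99% to 6.23% in CD44+ libraries. RNA quality was not measured, and its part in this was not tested. Another gene, with no symbol in the tables used here, held 4.98% to 5.83% and 5.52% to 7.44%. With scaling factors computed without these genes and the immunoglobulin genes, a setting added after the data were seen, 2608 genes rose and 1508 fell.

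AT1 markers were higher in CD44+ cells: 20 rose and 1 fell of 27 tested, beside 18.2% of all genes that rose, with a median log2 fold change of 0.78 and animal medians of 0.71, 0.57, 0.72 and 0.91. Hopx, a homeodomain cofactor of AT1 cells, was at 40.3, 34.2, 35.5 and 33.7 CPM in CD44- and 109, 94.9, 101 and 145 CPM in CD44+ libraries (log2 fold change 1.65 ± 0.13, adjusted p = 2.54e-06). Pdpn, the AT1 surface protein podoplanin, was at 13, 12, 14 and 12.4 CPM in CD44- and 57.7, 40.1, 48.9 and 56.6 CPM in CD44+ libraries (log2 fold change 1.98 ± 0.11, adjusted p = 1.28e-08). Spock2, a matrix proteoglycan, was at 34.5, 32.8, 32.6 and 33.8 CPM in CD44- and 136, 129, 134 and 178 CPM in CD44+ libraries (log2 fold change 2.11 ± 0.09, adjusted p = 4.39e-09). All CD44+ libraries lay above all CD44- libraries in these 3 genes, and animal 8 was highest for Hopx and Spock2. Igfbp2, which marks terminally differentiated AT1 cells, was at 4.86, 6.18, 4.26 and 7.44 CPM in CD44- and 26.7, 27.1, 26.5 and 27.1 CPM in CD44+ libraries (log2 fold change 2.23 ± 0.14, adjusted p = 3.86e-08), and Clic5, a chloride channel protein, at 184, 167, 181 and 168 CPM in CD44- and 386, 366, 396 and 439 CPM in CD44+ libraries (log2 fold change 1.18 ± 0.06, adjusted p = 7.90e-09). Markers did not all move. Ager, a defining AT1 receptor that AT2 cells also transcribe at a low level, was at 846, 861, 826 and 733 CPM in CD44- and 826, 926, 785 and 888 CPM in CD44+ libraries, with overlapping groups (log2 fold change 0.07 ± 0.07, adjusted p = 0.531). Aqp5, the water channel, was the single member that fell, at 415, 437, 397 and 385 CPM in CD44- and 298, 399.9, 296 and 305 CPM in CD44+ libraries (log2 fold change -0.33 ± 0.09, adjusted p = 0.013), and its groups overlapped through animal 2.

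Genes of the transitional alveolar state gave mostly increases: 25 rose and 1 fell of 36 tested, with a median of 0.52; the decrease was Myo1e (-0.25 ± 0.06), an unconventional myosin. Cldn4, a tight junction claudin, was at 2.66, 1.72, 2.51 and 3.13 CPM in CD44- and 22.9, 14.3, 21.8 and 20.04 CPM in CD44+ libraries (log2 fold change 2.97 ± 0.19, adjusted p = 3.33e-08). Krt19 was at 59.4, 59.2, 55.6 and 60.7 CPM in CD44- and 128, 124, 121 and 134 CPM in CD44+ libraries (log2 fold change 1.11 ± 0.06, adjusted p = 7.25e-09), and S100a6, a calcium-binding protein, at 13.4, 13.7, 10.8 and 14.4 CPM in CD44- and 40.5, 30.3, 33.5 and 46.7 CPM in CD44+ libraries (log2 fold change 1.53 ± 0.14, adjusted p = 1.40e-06). Sfn, the p53-induced protein stratifin, was at 35.3, 36.9, 36.9 and 37.1 CPM in CD44- and 67.1, 44.1, 68.9 and 58.6 CPM in CD44+ libraries (log2 fold change 0.71 ± 0.11, adjusted p = 3.51e-04). Krt8, the keratin that names the state, changed less, from 117, 108, 124 and 115 CPM in CD44- to 157, 127, 162 and 134 CPM in CD44+ libraries (log2 fold change 0.32 ± 0.08, adjusted p = 0.00505). The groups overlapped in none of these 5 genes, and animal 2 had the lowest CD44+ level of Cldn4, S100a6, Sfn and Krt8. Among 8 keratins tested 4 rose, Krt7 (0.60 ± 0.10) and Krt18 (0.27 ± 0.06) being the others, and Krt23 fell, from 93.5, 90.1, 92.7 and 89.4 to 58.3, 64.8, 71 and 63 CPM (log2 fold change -0.51 ± 0.06, adjusted p = 2.35e-05). Mesothelial cells are also known for Krt19, and their markers rose in the same libraries; their part was not tested.

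Mitotic genes were higher in CD44+ cells at low levels. In the cell cycle list 25 rose and 0 fell of 42 tested (median 1.39). Plk1, the mitotic kinase, was at 1.67, 0.860, 1.32 and 1.23 CPM in CD44- and 9.20, 5.58, 10.1 and 4.19 CPM in CD44+ libraries (log2 fold change 2.51 ± 0.30, adjusted p = 1.73e-05), and Ccnb1, cyclin B, at 0.608, 0.313, 0.877 and 0.369 CPM in CD44- and 5.47, 2.96, 4.56 and 3.01 CPM in CD44+ libraries (log2 fold change 2.85 ± 0.35, adjusted p = 1.92e-05). Cenpe, a kinetochore motor, was at 2.36, 0.626, 1.82 and 0.676 CPM in CD44- and 11.6, 5.46, 9.12 and 5.74 CPM in CD44+ libraries (log2 fold change 2.55 ± 0.40, adjusted p = 4.31e-04). Animals 1 and 7 were highest and animal 8 lowest among CD44+ libraries for Plk1. The replication helicase genes Mcm2, Mcm4, Mcm5, Mcm6 and Mcm7, named after their values were seen, were not called, with log2 fold changes from -0.07 to 0.54. With the animal as a replicate block Mcm5 (0.50, adjusted p = 0.00218) and Mcm6 (0.24, adjusted p = 0.0194) rose. The summed level of the list was 557 to 722 CPM in CD44- and 708 to 1148 CPM in CD44+ libraries. Markers of leukocytes and fibroblasts rose in the same libraries, and their part was not tested.

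Airway markers gave mostly increases. Of club and secretory markers 11 rose and 1 fell of 18 tested, Cbr2 (-0.40 ± 0.13), a carbonyl reductase with overlapping groups, being the decrease, a call lost in 12 of 21 alternatives. Scgb1a1, the club cell secretoglobin, was at 503, 773, 339 and 595 CPM in CD44- and 1738, 2160, 1178 and 2236 CPM in CD44+ libraries (log2 fold change 1.73 ± 0.32, adjusted p = 0.0072). Scgb3a2 was at 13, 16, 11 and 16 CPM in CD44- and 40.6, 46, 37.5 and 47.8 CPM in CD44+ libraries (log2 fold change 1.62 ± 0.12, adjusted p = 2.47e-07), and Bpifb1, an antibacterial airway protein, at 5.39, 6.41, 5.95 and 5.35 CPM in CD44- and 37.5, 29.6, 30.1 and 38.7 CPM in CD44+ libraries (log2 fold change 2.56 ± 0.12, adjusted p = 4.39e-09). No overlap was seen in these genes, and animal 7 was lowest for Scgb1a1 in both sorts. Of ciliated cell markers 19 rose and 0 fell of 23 tested, and Foxj1, the master regulator of motile cilia, was at 11.2, 14.1, 9.27 and 15.9 CPM in CD44- and 47.3, 34.4, 17 and 52.6 CPM in CD44+ libraries (log2 fold change 1.58 ± 0.38, adjusted p = 0.0207). Of 15 basal markers 7 were tested and 5 rose, with Igfbp5 (2.41 ± 0.12) and Itgb4 leading. Krt5, the defining basal keratin, did not pass the filter: it was at 0 to 0.684 CPM in CD44- and 0 to 33.4 CPM in CD44+ libraries, and Trp63 was at no more than 3.74 CPM in any library. Summed levels were 4252 to 5640 CPM in CD44- and 4590 to 7373 CPM in CD44+ libraries for club, 140.0 to 170.1 CPM in CD44- and 214 to 433 CPM in CD44+ libraries for ciliated and 433 to 475 CPM in CD44- and 556 to 653 CPM in CD44+ libraries for basal markers. In CD44- libraries Scgb1a1 was a small part of the club sum and Krt5 of the basal sum.

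Markers of mesenchymal and vascular cells rose from low levels. Of fibroblast markers 33 rose and 2 fell of 40 tested (median 2.98), Plin2 (-0.30) and Ces1d (-0.31), both also expressed by AT2 cells, being the decreases. The call of Ces1d was lost in 10 of 21 alternatives. Col1a1, type I collagen, was at 27.1, 22.6, 25.1 and 19.8 CPM in CD44- and 352, 152, 183 and 185 CPM in CD44+ libraries (log2 fold change 3.21 ± 0.32, adjusted p = 3.99e-04). Pdgfra, the receptor that marks alveolar fibroblasts, was at 14.4, 14.2, 10.8 and 14.1 CPM in CD44- and 134, 68.4, 52 and 95.4 CPM in CD44+ libraries (log2 fold change 2.71 ± 0.33, adjusted p = 0.00106). Dcn, the proteoglycan decorin, was at 7.37, 6.73, 8.33 and 7.56 CPM in CD44- and 85.2, 66.7, 66.8 and 92.4 CPM in CD44+ libraries (log2 fold change 3.37 ± 0.12, adjusted p = 2.75e-09). Animal 1 had the highest CD44+ level of Col1a1 and Pdgfra, and no CD44- library overlapped. The summed fibroblast list, which also holds Plin2 and Ces1d, was 2058 to 2226 CPM in CD44- and 3908 to 6176 CPM in CD44+ libraries. Without both libraries of animal 1, 33 of its members rose and 0 fell.

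Of mural and smooth muscle markers 20 rose and 0 fell of 21 tested (median 2.38). Hhip, the hedgehog antagonist that lung smooth muscle and myofibroblasts express, was at 1.98, 2.19, 1.38 and 1.11 CPM in CD44- and 45.7, 62.5, 48.3 and 67.7 CPM in CD44+ libraries (log2 fold change 5.10 ± 0.20, adjusted p = 5.94e-09), and Pdgfrb, the pericyte receptor, at 4.33, 5.79, 4.13 and 4.85 CPM in CD44- and 41.4, 38.5, 28.4 and 34 CPM in CD44+ libraries (log2 fold change 2.90 ± 0.14, adjusted p = 4.67e-09). Among mesothelial markers 9 rose and 0 fell of 9 tested. Msln, mesothelin, was at 3.42, 2.66, 4.76 and 2.58 CPM in CD44- and 30.5, 15.1, 34.1 and 18.8 CPM in CD44+ libraries (log2 fold change 2.87 ± 0.31, adjusted p = 1.19e-04). Of endothelial markers 27 rose and 1 fell of 29 tested, Esam (-0.32 ± 0.06), an adhesion molecule found at tight junctions, being the decrease. Cdh5, VE-cadherin, was at 4.41, 3.05, 2.57 and 2.21 CPM in CD44- and 23.4, 18.3, 24.1 and 20.4 CPM in CD44+ libraries (log2 fold change 2.83 ± 0.18, adjusted p = 3.75e-08). Levels stayed small beside the surfactant genes: the summed lists were 66 to 95.5 CPM in CD44- and 382 to 525 CPM in CD44+ libraries for mural, 73.6 to 80.3 CPM in CD44- and 199 to 237 CPM in CD44+ libraries for mesothelial and 159 to 191 CPM in CD44- and 332 to 413 CPM in CD44+ libraries for endothelial markers. These counts include members that passed the low-count filter only through CD44+ libraries (3 mural, 6 endothelial and 2 fibroblast), so the shares are descriptions. Wt1, a defining mesothelial factor, was at no more than 0.469 CPM in CD44- and 1.63 CPM in CD44+ libraries.

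**Figure D3:**
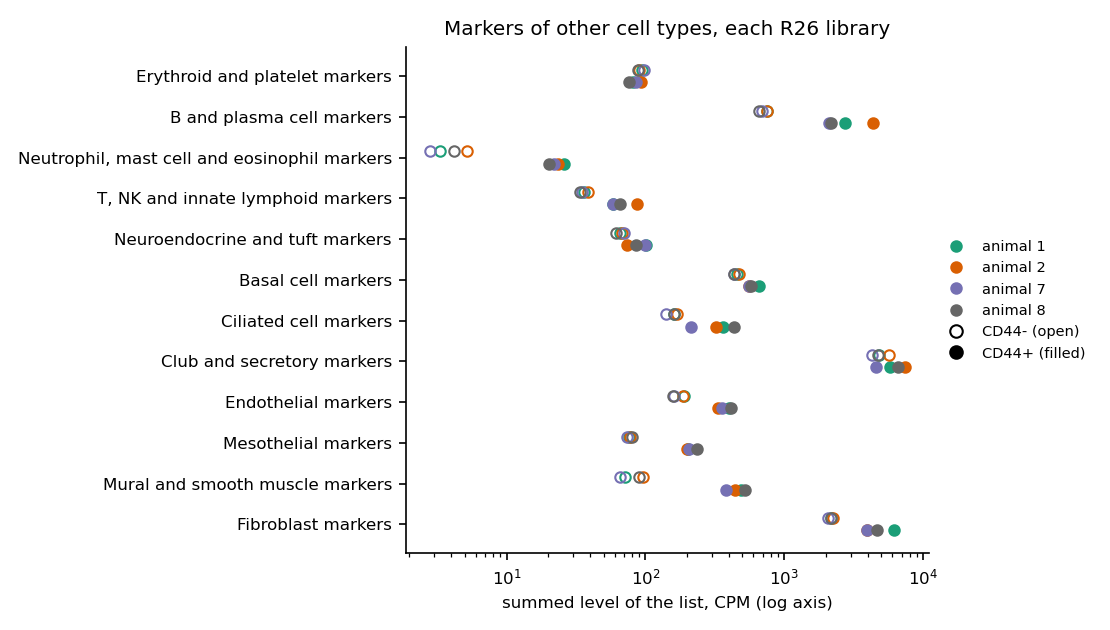
Summed level (CPM, log axis) of 12 marker lists of other cell types in each library, open for CD44- and filled for CD44+, coloured by animal. The club and erythroid sums overlap between the sorts. The other 10 are higher in every CD44+ than in every CD44- library. Macrophage, dendritic and neural sums, which were lower or overlapped in CD44+ libraries, are not plotted.

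Collagens, integrins and mesenchymal factors rose in the same libraries as these markers. Of collagens 20 rose and 0 fell of 26 tested (median 1.86), and Col3a1, the fibrillar type III collagen, was at 41.5, 27.2, 36.5 and 28.8 CPM in CD44- and 505, 197, 306 and 313 CPM in CD44+ libraries (log2 fold change 3.30 ± 0.33, adjusted p = 4.46e-04), highest in animal 1. Without the CD44+ library of animal 1 the collagen median was 1.51. Of mesenchymal transition factors 13 rose and 1 fell of 19 tested: Zeb2 (2.96 ± 0.15), Prrx1 (3.30 ± 0.19) and Zeb1 (1.79 ± 0.19), transcription factors of mesenchymal cells, rose, and Esrp2 (-0.27 ± 0.06), an epithelial splicing regulator that controls Cd44 exon use, fell. Integrins and laminins gave 22 increases and 1 decrease among 28 tested, from Itga4 (4.99), a leukocyte and mesenchymal integrin, to Lama3 (0.69 ± 0.07), a laminin chain of epithelial basement membranes. The decrease was Itga9 (-0.24 ± 0.07). In the hyaluronan list 10 rose and 1 fell of 19 tested. Msn (0.59 ± 0.05), which encodes moesin, the linker between CD44 and actin, rose, as did the hyaluronan synthase Has1 (2.41) and the hyaluronan-binding Tnfaip6 (3.46) and Vcan (2.45). Rdx and Ezr, the other linkers of that family, and Esrp1, named after their values were seen, were not called (-0.13 ± 0.06, -0.10 ± 0.06 and -0.05 ± 0.06), but Rdx fell with the animal as a replicate block (-0.13, adjusted p = 0.0133). Of actin and adhesion genes 14 rose and 1 fell of 30 tested, with Cnn3 (2.58), Myl9 (2.26) and Tpm2 (1.80), which smooth muscle also expresses, higher and Actn4 (-0.18 ± 0.05) lower; 21 rose with the animal as a block. The S100, annexin and galectin list gave 10 increases and 3 decreases among 24 tested. S100a4 (3.55) and Lgals1 (3.01), both high in mesenchymal cells, and Lgals3 (0.51 ± 0.06) were among the increases. S100g (-0.51 ± 0.16) was the largest decrease, and its call was lost in 13 of 21 alternatives. In the cadherin and desmosome list 2 rose and 5 fell of 19 tested: Cdh11 (2.67) and Cdh13 (2.17), cadherins of mesenchymal and endothelial cells, rose, and Cdh16 and Nectin1 (-0.39 ± 0.07) fell.

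Several leukocyte genes were near the counting limit in CD44- cells, while others were not. Of 40 macrophage and monocyte markers 18 passed the filter, 7 only through CD44+ libraries; 10 rose and Lyz2 (-0.42 ± 0.12), a lysozyme that AT2 cells make themselves, fell. Csf1r, the receptor of macrophage colony-stimulating factor, was at 9.19, 6.18, 7.21 and 6.64 CPM in CD44- and 21.2, 21.9, 21 and 25.9 CPM in CD44+ libraries (log2 fold change 1.62 ± 0.13, adjusted p = 3.79e-07), with no overlap. Marco, which marks alveolar macrophages, had no count in any of the 8 libraries, and Cd68 was at 11.1 to 15.5 CPM in CD44- and 10.4 to 14.3 CPM in CD44+ libraries. Csf3r, of neutrophils, was also at 0 in all 8. Ccl3, a macrophage chemokine, had no count in CD44- and 155 in CD44+ libraries, which made it at least 71-fold higher against a floor of 3 counts over the group. Gzmb, a granule protease of cytotoxic lymphocytes, had 0 and 151 counts (at least 69.1-fold higher). B and plasma cell markers gave 10 increases and 2 decreases among 13 tested, the decreases being Sdc1 (-0.36 ± 0.08) and Xbp1 (-0.19 ± 0.05), which epithelial cells also express. Among the 13, 2 passed the filter only through CD44+ libraries. How reads of near-identical immunoglobulin segments were divided is not given in the sources used here.

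The other blood cell lists held few tested members. Of 35 T, NK and innate lymphoid markers 8 were tested, 6 of them through CD44+ libraries alone, and 5 rose; the summed list was 34 to 38.7 CPM in CD44- and 58.6 to 87.1 CPM in CD44+ libraries. Cd3d had 1 and 5 counts. Of dendritic markers 6 rose and 0 fell of 8 tested, 2 of the 8 being tested through CD44+ libraries alone. Irf8 (2.97) and Fscn1 (3.67) were among the increases. The summed list, which holds Cd74, was 3546 to 4322 CPM in CD44- and 2881 to 3787 CPM in CD44+ libraries. The macrophage sum, which holds Lyz2, was 22240 to 26667 CPM in CD44- and 16291 to 23138 CPM in CD44+ libraries. Kit (3.61), Gata2 (3.25) and Ltf (1.58) were the only tested members of 22 neutrophil, mast cell and eosinophil markers, and all rose. Among these 3, 1 passed the filter only through CD44+ libraries. Of erythroid and platelet markers 2 rose and 1 fell of 6 tested, 2 of the 6 being tested through CD44+ libraries alone. The haemoglobin genes Hba-a1 (2.89) and Hba-a2 (3.44), near-identical copies whose reads may have been divided between them, rose, and Car2 (-0.38 ± 0.06) fell. Of neural and Schwann cell markers 0 rose and 2 fell of 4 tested, among them Mal (-0.26 ± 0.06); the summed list was 249 to 264 CPM in CD44- and 220.4 to 227 CPM in CD44+ libraries. In the neuroendocrine and tuft list 4 rose and 0 fell of 7 tested, 3 of the 7 being tested through CD44+ libraries alone. Calca (3.69), Pcsk1 (3.47), Resp18 (3.20) and Syp (0.67), genes of neuroendocrine cells, rose. The tuft markers Dclk1, Trpm5 and Avil were not called, Dclk1 rising only with the animal as a replicate block (0.27, adjusted p = 0.003).

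Antigen presentation genes did not move as 1 group. Of MHC class II genes 3 rose and 4 fell of 14 tested, 2 of the 14 being tested through CD44+ libraries alone. Ifi30 (-0.52 ± 0.07), a lysosomal thiol reductase, and H2-DMb1 (-0.34 ± 0.07) fell. Ctss (4.28), the cathepsin of antigen-presenting cells, Cd274 (2.31), which encodes PD-L1, and H2-Oa (1.76) rose. With the animal as a block 7 fell, and 8 without the CD44+ library of animal 2. In the class I list 3 rose and 0 fell of 20 tested, which at 15% was below the 18.2% of all genes that rose. The increases were led by Nlrc5 (0.90 ± 0.17), the activator of class I genes. With the block 10 rose, beside 21.5% of all genes. H2 class I genes are close in sequence, so their counts are uncertain. Of interferon response genes 21 rose and 0 fell of 38 tested (median 0.69) beside the background of 18.2%. Gbp2, a guanylate-binding protein, was at 4.41, 5.32, 5.07 and 4.67 CPM in CD44- and 17.8, 12.9, 16.2 and 21.6 CPM in CD44+ libraries (log2 fold change 1.82 ± 0.16, adjusted p = 6.53e-07), with no overlap. Ifit2 (2.29) and Cxcl10 (2.04) rose too. Of chemokine, cytokine and NF-kappaB feedback genes 19 rose and 0 fell of 32 tested. Il1b (6.26) and Tnf (2.90), cytokines that macrophages make, rose, as did Cxcl12 (3.69), a fibroblast chemokine, and Lif (2.12).

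Immediate early genes gave 18 increases and 1 decrease among 35 tested. Rgs2, a regulator of G protein signalling, was at 2.13, 1.49, 1.32 and 1.97 CPM in CD44- and 18.9, 16.7, 14.4 and 17.2 CPM in CD44+ libraries (log2 fold change 3.28 ± 0.17, adjusted p = 7.50e-09), and Ier3 at 50.9, 49.98, 54.8 and 47.5 CPM in CD44- and 90.9, 70.5, 85.4 and 85.2 CPM in CD44+ libraries (log2 fold change 0.71 ± 0.08, adjusted p = 5.93e-06). Zfp36, which encodes an RNA-binding protein that destabilises cytokine transcripts, was the decrease, at 921, 949, 965 and 1006 CPM in CD44- and 692, 694, 690.2 and 739.8 CPM in CD44+ libraries (log2 fold change -0.45 ± 0.06, adjusted p = 2.82e-05). By animal the list medians were 0.45, 0.11, 0.45 and 0.39, animal 2 being lowest. Heat shock chaperones moved little: 2 rose and 0 fell of 17 tested, Cryab, a small chaperone, at 25.9, 29.9, 30.01 and 24.8 CPM in CD44- and 45.7, 46.8, 44.5 and 42.9 CPM in CD44+ libraries (log2 fold change 0.70 ± 0.08, adjusted p = 8.23e-06), and Dnajb1 (0.62 ± 0.11). The 2 of 17 were 11.8%, below the 18.2% of all genes that rose. With the animal as a block 10 rose, beside 21.5% of all genes, and 7 without the CD44+ library of animal 2. Summed heat shock levels differed more between animals than between sorts: among CD44- libraries they were lowest in animals 2 and 8 (3914 and 4610 CPM) and highest in animals 1 and 7 (5872 and 6492 CPM), and the CD44+ libraries had the same order (4104 and 5534, against 7135 and 7464 CPM).

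Of the NRF2 and glutathione genes 12 rose and 4 fell of 30 tested (median 0.05). Srxn1, sulfiredoxin, was at 18, 18.5, 19 and 20.5 CPM in CD44- and 30.3, 37, 31.6 and 40.3 CPM in CD44+ libraries (log2 fold change 0.87 ± 0.10, adjusted p = 9.01e-06), and Slc7a11, the cystine transporter, at 1.14, 0.469, 1.07 and 0.983 CPM in CD44- and 4.56, 3.98, 6.02 and 3.46 CPM in CD44+ libraries (log2 fold change 2.28 ± 0.30, adjusted p = 3.12e-05), without overlap. Gclm (0.78 ± 0.12), of glutathione synthesis, rose too, while Cat (-0.56 ± 0.11), catalase, and Hmox1 (-0.29 ± 0.09) fell. p53 targets gave 12 increases and 1 decrease among 28 tested, with Phlda3 (1.14 ± 0.15), Fas (1.29 ± 0.20) and Lmnb1 (0.91 ± 0.14) higher and Sesn2 (-0.27 ± 0.08) lower. In the unfolded protein response 2 rose and 6 fell of 30 tested (median -0.03), the decreases including Herpud1 (-0.34 ± 0.05) and Pdia6 (-0.28 ± 0.06), and the increases being Derl3 (0.80) and Asns (0.38). The call of Asns was lost in 12 of 21 alternatives. Of xenobiotic and aldehyde enzymes 15 rose and 6 fell of 28 tested; Cyp2e1 (3.89), Cyp2a5 (2.04) and Fmo1 (2.58) rose and Sult1a1 (-0.52 ± 0.10) and Aox3 (-0.50 ± 0.15) fell, while club cells are known for several of these cytochromes. In the glycolysis and hypoxia list 7 rose and 8 fell of 28 tested: Pfkfb3 (1.94), Slc16a3 (1.76), a lactate exporter, and Ndrg1 (1.01 ± 0.09) rose, and Hk2 (-0.38 ± 0.06) and Pfkfb4 (-0.34 ± 0.06) fell. Without both libraries of animal 1, 4 of its members fell.

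In the TGF-beta, hedgehog and Notch lists more genes rose than fell, as they did over all tested genes (18.2% rose and 9.3% fell). In the TGF-beta list 19 rose and 2 fell of 31 tested: the ligand Tgfb2 was at 2.66, 2.66, 2.69 and 2.64 CPM in CD44- and 20.8, 14.2, 18.2 and 17.8 CPM in CD44+ libraries (log2 fold change 2.74 ± 0.15, adjusted p = 7.90e-09), the co-receptor Tgfbr3 changed by 1.68 ± 0.11, and Ccn2, a matricellular target, was at 12.2, 12, 13.8 and 11.7 CPM in CD44- and 82.7, 47.2, 54.1 and 75.2 CPM in CD44+ libraries (log2 fold change 2.38 ± 0.18, adjusted p = 6.51e-06). The pseudoreceptor Bambi (-0.48 ± 0.07) and the latency protein Ltbp3 (-0.27 ± 0.05) fell. In the hedgehog list 9 rose and 0 fell of 14 tested, and Gli1, the transcriptional effector, was at 0.684, 0.469, 1.07 and 0.860 CPM in CD44- and 7.75, 6.26, 6.02 and 8.11 CPM in CD44+ libraries (log2 fold change 3.15 ± 0.26, adjusted p = 3.79e-07), beside the co-receptors Gas1 (3.27) and Boc (2.97). The ligand Shh, which epithelium makes, named after its value was seen, was not called (0.11 ± 0.11). Notch genes gave 9 increases and 1 decrease among 18 tested. The receptor Notch3 (2.38) and the targets Heyl (2.86) and Hes1 (0.68 ± 0.07) rose, and Jag1 (-0.24 ± 0.07), a ligand, fell. In the BMP list 9 rose and 3 fell of 21 tested: the BMP-binding Fstl1 (3.15), the ligand Bmp6 (1.96) and the target Id3 (1.11) rose, and Id2 (-0.47 ± 0.11), Bmp4 (-0.22 ± 0.08) and Bambi fell. The call of Bmp4 was lost in 11 of 21 alternatives. In the EGF list 2 rose and 2 fell of 10 tested: the receptor Egfr (0.39 ± 0.12) and the ligand Nrg1 (1.62) rose, and the receptor Erbb3 (-0.28 ± 0.07) and the feedback inhibitor Errfi1 (-0.41 ± 0.08) fell.

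In the Wnt list 13 rose and 11 fell of 36 tested. Every ligand that was called rose, as did the secreted inhibitor Sfrp1: Wnt5a, at 1.06, 1.49, 0.627 and 1.47 CPM in CD44- and 9.84, 8.88, 7.57 and 8.11 CPM in CD44+ libraries (log2 fold change 2.88 ± 0.24, adjusted p = 5.06e-07), Wnt7a (2.01), Wnt4 (1.82) and Sfrp1 (2.94). Feedback genes induced by beta-catenin fell. Notum, the secreted lipase that inactivates Wnt ligands, was at 25.5, 25.6, 28.5 and 25.6 CPM in CD44- and 15.1, 17.2, 15.2 and 16.4 CPM in CD44+ libraries (log2 fold change -0.72 ± 0.09, adjusted p = 1.86e-05), with no overlap. Nkd1 (-0.42 ± 0.08), Axin2 (-0.28 ± 0.08), Znrf3 (-0.34 ± 0.06) and Rnf43 (-0.28 ± 0.08) also fell, as did Ctnnb1 (-0.31 ± 0.06), which encodes beta-catenin, the receptors Fzd5 (-0.27) and Lrp5 (-0.22), and Wls (-0.25), which carries ligands to the surface. In the FGF list 8 rose and 7 fell of 19 tested, the ligands Fgf10 (3.24) and Fgf7 (3.08) higher, and the receptor Fgfr2 (-0.35 ± 0.06) and the feedback genes Etv5, Spry2 (-0.40 ± 0.06), Spry1 (-0.26 ± 0.06) and Spred2 (-0.23 ± 0.06) lower. Other members went against these: the ligand Fgf1 (-0.27 ± 0.07) fell, and Il17rd (1.85), also an inhibitor of FGF signalling, rose. Without both libraries of animal 1, 9 rose and 7 fell in the Wnt and 7 rose and 5 fell in the FGF list. Wnt5a, Fgf10 and Fgf7 are ligands known from lung fibroblasts, whose markers rose in the same libraries, and their part here was not tested.

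Of YAP and TAZ targets 16 rose and 2 fell of 28 tested (median 0.39), the decreases being Cdc42ep3 (-0.38 ± 0.07) and the cofactor Tead3 (-0.24 ± 0.07). Axl, a receptor tyrosine kinase, was at 3.19, 3.83, 3.26 and 3.20 CPM in CD44- and 34, 24.9, 24.3 and 28.6 CPM in CD44+ libraries (log2 fold change 3.05 ± 0.14, adjusted p = 4.30e-09), and Crim1, a membrane regulator of BMPs, at 20.2, 22.3, 21.2 and 19.4 CPM in CD44- and 43.9, 40.9, 39.8 and 45.9 CPM in CD44+ libraries (log2 fold change 1.04 ± 0.08, adjusted p = 2.20e-07), with no overlap in either. GGAATG or its reverse complement stood in the promoter window of 10 of 22 list members in the table (45.5%), beside 10.8% of all. The windows of Axl (chr7:25788734-25788983 on the minus strand) and Crim1 (chr17:78199998-78200247 on the plus strand) are printed because both rose and hold 1 match each, in capitals. They serve for comparison with the promoters of Sfta2, Lamp3 and Slc34a2, genes with the same letters that fell. Axl also holds TGTTTAC, which begins with the TG that ends its capitals.
Axl: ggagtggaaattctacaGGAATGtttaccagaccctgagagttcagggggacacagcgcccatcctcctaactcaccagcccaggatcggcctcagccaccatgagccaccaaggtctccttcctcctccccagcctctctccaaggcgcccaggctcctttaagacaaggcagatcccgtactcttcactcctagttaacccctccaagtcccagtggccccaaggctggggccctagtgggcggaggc
Crim1: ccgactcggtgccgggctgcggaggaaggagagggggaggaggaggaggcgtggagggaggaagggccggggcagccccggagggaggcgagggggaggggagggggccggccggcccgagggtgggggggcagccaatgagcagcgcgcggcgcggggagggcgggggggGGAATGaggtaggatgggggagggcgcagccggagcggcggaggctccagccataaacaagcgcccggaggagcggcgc
TGANTCA, the AP-1 core, was found in 5.96% of promoters of called higher genes, 3.93% of called lower and 4.08% of not called genes.

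Other epithelial lists were mixed, beside 18.2% of all genes that rose and 9.3% that fell. Lung lineage transcription factors gave 9 increases and 14 decreases among 37 tested, with the airway factor Sox2 (2.01), the distal tip factor Sox9 (1.92) and Cebpb (0.56 ± 0.09) higher and Irx1 (-0.47 ± 0.06) lower. Of ion and water transport genes 7 rose and 9 fell of 24 tested: the sodium channel subunits Scnn1g (1.48 ± 0.10) and Scnn1b (0.85 ± 0.07) rose, and the potassium channel Kcnj15 (-0.51 ± 0.05) and the anion transporter Slc26a9 (-0.39 ± 0.05) fell. Of claudins and tight junction genes 6 rose and 3 fell of 23 tested, Cldn3 (-0.37 ± 0.11), Cldn12 (-0.28 ± 0.08) and Marveld3 (-0.30 ± 0.08) being lower. The call of Cldn3 was lost in 9 of 21 alternatives. In the protease list 14 rose and 7 fell of 29 tested. The surface peptidases Mme (-0.39 ± 0.06), Dpp4 (-0.36 ± 0.06), Cpm (-0.56 ± 0.11) and Anpep (-0.52 ± 0.14) fell, while Timp3 (1.44 ± 0.09), an inhibitor of matrix proteases, and Plat (3.24), tissue plasminogen activator, rose. Complement genes gave 10 increases and 2 decreases among 16 tested. C3 (0.68 ± 0.08) and the fibroblast-expressed C4b (3.14) and Serping1 (3.02) rose, and Hc (-0.39 ± 0.09) and C6 (-0.31 ± 0.05) fell.

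**Figure D4:**
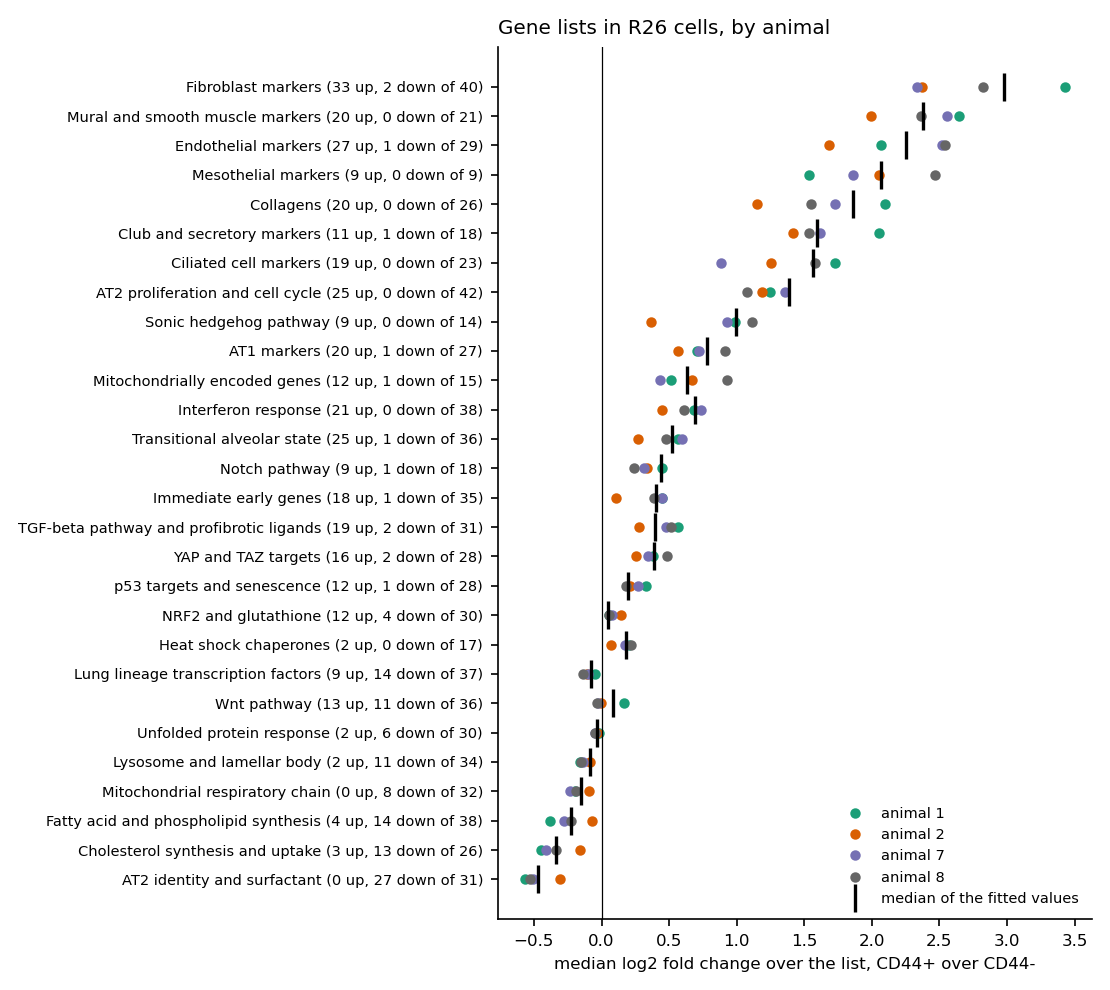
Median log2 fold change (CD44+ over CD44-) of 28 gene lists in each animal (points, from log2 of CPM plus 0.1) and the median of the fitted values (black bars), with the numbers called up and down of those tested. The AT2 list lies below 0 and the stromal lists at the far right in all 4 animals, and animal 2 is the least extreme for many lists.

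List counts that moved by more than 1.5 times, among those of at least 3 in either fit, were as follows. Without the CD44+ library of animal 2, 7 heat shock genes, 4 EGF genes and 7 MHC class I genes rose, and 3 club markers, 8 MHC class II genes, 21 cholesterol genes, 13 respiratory chain genes and 5 S100 list genes fell. Without the CD44+ library of animal 1, 1 MHC class I gene rose, and 1 NRF2 gene fell. Without both libraries of animal 1, 1 MHC class I gene rose, and 2 MHC class II genes, 7 Wnt genes, 1 NRF2 gene, 8 fatty acid genes, 7 cholesterol genes, 1 respiratory chain gene, 4 glycolysis genes, 0 tight junction genes and 1 S100 list gene fell, and without both of animal 2, 6 heat shock genes rose, and 3 club markers fell. With the block, 10 heat shock genes, 4 EGF genes and 10 MHC class I genes rose, and 7 MHC class II genes, 3 immediate early genes, 4 YAP targets, 22 fatty acid genes, 20 cholesterol genes and 6 tight junction genes fell. With at least 50 counts in 4 libraries, where fewer genes were tested, 9 ciliated markers, 3 basal markers, 1 neuroendocrine and tuft marker, 13 endothelial markers, 3 macrophage markers, 3 dendritic markers, 4 B and plasma cell markers, 0 T and NK markers, 1 neutrophil, mast cell and eosinophil marker, 1 MHC class II gene, 12 interferon genes, 8 Wnt genes, 3 FGF genes, 1 fatty acid gene, 2 tight junction genes, 6 hyaluronan list genes and 4 lung transcription factors rose, and 3 unfolded protein response genes, 5 respiratory chain genes and 5 glycolysis genes fell. With all 16 libraries in the fit, where more genes were tested, 7 neuroendocrine and tuft markers, 18 macrophage markers, 11 dendritic markers, 10 T and NK markers, 6 neutrophil, mast cell and eosinophil markers, 4 erythroid and platelet markers, 3 neural markers, 5 heat shock genes, 4 cadherin list genes and 6 MHC class I genes rose, and 7 MHC class II genes, 3 immediate early genes, 4 YAP targets, 10 unfolded protein response genes, 14 respiratory chain genes, 6 tight junction genes, 3 hyaluronan list genes and 5 S100 list genes fell. Smaller counts also changed, such as the AT1, club, integrin and hyaluronan decreases, from 1 to 2 each with the block.

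The same contrast was set against OG cells in 1 fit of all 16 libraries (15516 genes tested), which tests the difference of the log2 fold changes, R26 minus OG. In OG cells 3464 genes rose (22.3%) and 4351 fell (28%). The difference was called for 3825 genes (24.7%), 2806 larger in R26 (18.1%) and 1019 larger in OG (6.57%), where larger means the more positive change. This split depended on scaling: with DESeq2 size factors it was 2275 and 1460, and without any single R26 library the median difference shifted by -0.123 to -0.114, larger in R26 for 1651 to 2104 and in OG for 1720 to 2419 genes. So small differences are not described, and each list is given with its range over the fit itself and 5 alternatives (DESeq2 size factors, the replicate block and 3 R26 libraries left out in turn).

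R26 values here are from the fit of 8 libraries. Most endothelial and all tested mesothelial markers rose in R26 cells. In OG cells 15 endothelial markers fell and 1 rose of the 29 tested in R26, and 5 mesothelial markers fell and 3 rose of 9. The difference was larger in R26 for 30 of 33 endothelial (range 28 to 32) and 9 of 9 mesothelial markers (range 8 to 10), and larger in OG for none. Cdh5 was 2.83 ± 0.18 in R26 and -1.47 in OG (difference 4.28 ± 0.28, adjusted p = 2.84e-10). Mural markers were larger in R26 for 16 of 21 in the fit and in all 5 alternatives. Of the AT1 list 14 of 27 were larger in R26 and 3 in OG (ranges 13 to 16 and 3 to 7). Spock2 was 2.11 in R26 and 0.05 in OG (difference 2.04 ± 0.12, adjusted p = 1.94e-10), Igfbp2 2.23 and -0.04 (difference 2.25 ± 0.24, adjusted p = 2.84e-07). For the cell cycle list 17 of 42 were larger in R26 (range 12 to 24), Plk1 being 2.51 in R26 and 0.49 in OG.

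Most AT2 genes fell in R26 and in OG cells; in OG 29 fell and 1 rose, with a list median of -0.96. For 17 of 31 the decrease was larger in OG, and for 2 it was larger in R26 (ranges 12 to 21 and 2 to 8). Lyz2 was -0.42 in R26 and -2.32 in OG (difference 1.87 ± 0.13, adjusted p = 9.42e-10), whereas for Sftpb the values were -0.61 and -0.57 (difference -0.06 ± 0.18, adjusted p = 0.84). Stress lists differed too. Heat shock chaperones were larger in R26 for 13 of 17 (range 11 to 16), with 12 falling in OG, and NRF2 genes for 16 of 30 (range 12 to 18). Slc7a11 rose in R26 (2.28 ± 0.30) and was -0.75 in OG (difference 3.003 ± 0.23, adjusted p = 1.56e-08), and Srxn1 was 0.87 and -0.79 (difference 1.63 ± 0.10, adjusted p = 1.94e-10). Immediate early genes went the other way, with 15 of 35 larger in OG and 4 in R26 (ranges 15 to 18 and 4 to 5). These are differences between prefixes, and reading them as genotypes rests on the inference stated at the start.

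**Figure D5:**
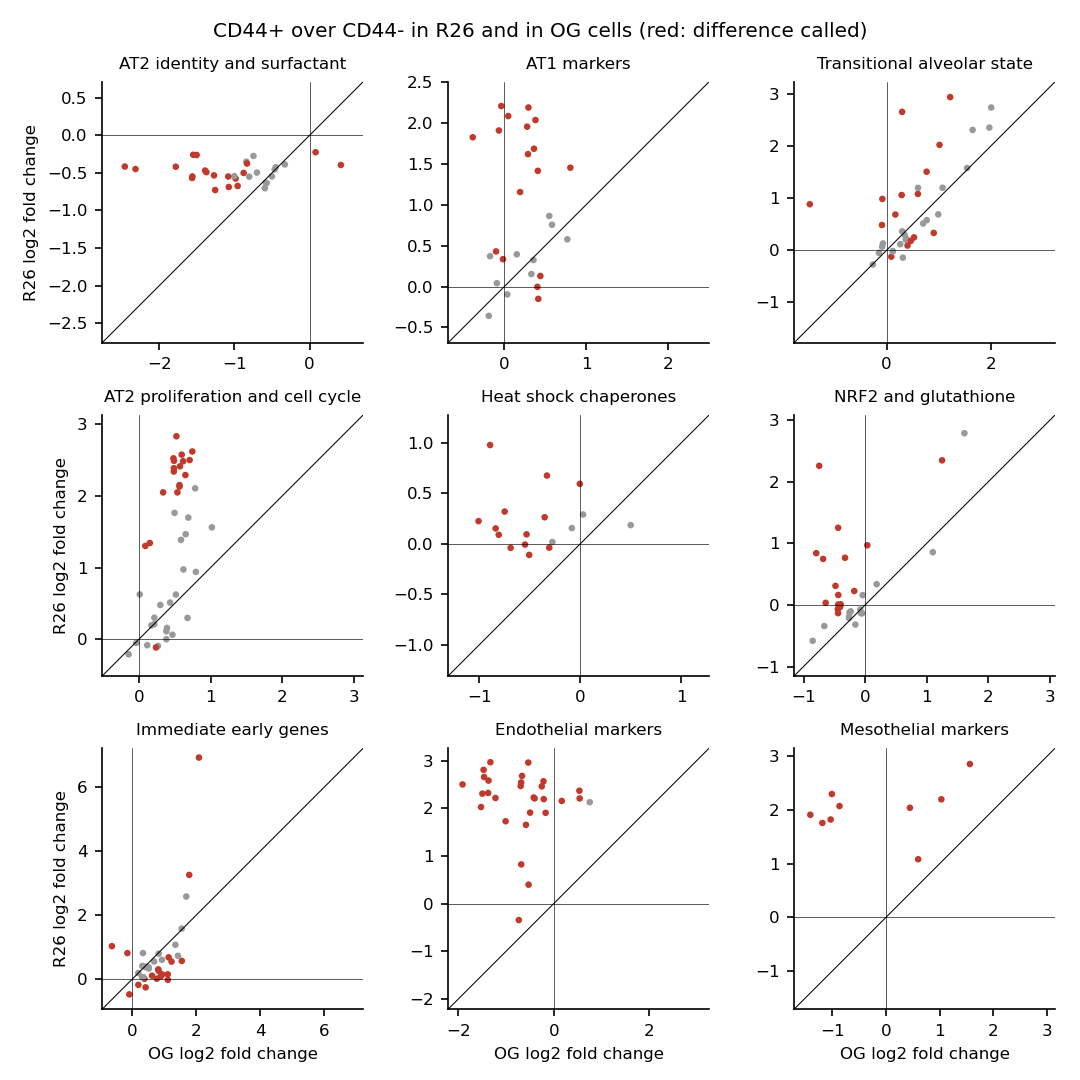
Members of 9 lists by their log2 fold change (CD44+ over CD44-) in OG cells (horizontal) and R26 cells (vertical), both from the fit of 16 libraries, with the line of equality. Red points have a called difference. Endothelial and mesothelial markers lie high in R26, and most endothelial markers lie below 0 in OG, and AT2 genes lie above the line where the OG decrease is larger.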

How the data were processed

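Gene counts of 16 bulk RNA libraries (stranded total RNA depleted of ribosomal RNA, per the labels' protocols) were deposited as 1 table of 27179 gene identifiers; Bowtie2 and mm10 are named in the submitters' processing notes, and the counter, the annotation, the strand setting and the treatment of multi-mapping reads are not given in the sources used here. Symbols were found for 25275 identifiers (93%). The 8 R26 libraries were fitted alone, since their CD44+ libraries spread more widely than the other groups, with edgeR 4.0.16 (R 4.3.3; filterByExpr, TMM scaling, robust quasi-likelihood test, Benjamini-Hochberg adjustment over all tested genes, threshold 0.05). Differences from OG come from 1 fit of 16 libraries. Log2 values per animal use CPM plus 0.1, from the deposited counts. The tests were checked on simulated data with few changed genes, none at low counts, and the same spread for all genes. The simulation held no pairing and no outlying library, so it does not cover those features of these data. Libraries with the same number deviated together from their group means (correlations 0.16, 0.21, 0.26 and 0.29 for animals 1, 2, 7 and 8, each the highest with its own number), so the numbers pair the samples. The main fit did not use this pairing. The replicate block, which did, was an alternative. Floors of 3 counts cover counting error only.

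The members and the 55 gene lists (1345 genes, 134 on more than 1 list) were chosen with earlier results of these data known, and the list of mitochondrially encoded genes was added after its values were seen. Named genes are the sort antigens, the 15 largest changes each way at a mean of at least 4 log2 CPM without overlap of the groups (predicted genes, pseudogenes and ribosomal and small RNAs passed over), the 8 most abundant called genes each way, up to 5 called members of each list with the smallest adjusted p and those in its minority direction, defining markers, and the 8 largest differences from OG each way. Lists of 12 or fewer tested genes may be named whole. Alternatives were DESeq2 1.42.0 (size factors and Wald test), limma 3.58.1 (voom with quality weights), other filters, a 1.5-fold minimum, all 16 libraries, the block, libraries left out, and scaling factors without a few abundant genes. A few named genes are not reported here.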

Additional observations from a re-analysis of the deposited data

Results flagged for a closer look

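Levels and summed list levels were tested for 1 library standing far from the other 3 of its group, in 252 groups of 4. In a single group chance gives about 1 in 20, and 29 stood out. The groups are not independent, since sums hold genes also tested singly and Sftpc entered as CPM and as percent. A shift of 1 library can thus count several times, and the 29 cannot be set against that rate. The CD44+ library of animal 2 accounted for 15 of them, all on the high side. They were Sftpc (69685 CPM, and 6.79 percent of its counts), Sftpb (15692 CPM), Slc34a2 (16757 CPM), Etv5 (758 CPM), Sfta2 (99.4 CPM), Lpcat1 (1108 CPM), Aqp5 (399.9 CPM), the leukocyte antigen gene Ptprc (14.8 CPM), and the summed AT2 list (194330 CPM), macrophage list, which holds Lyz2 (23138 CPM), FGF list (2584 CPM), lysosome list (15962 CPM), ion transport list (21718 CPM) and lung transcription factors (5871 CPM). So this library was high in AT2 genes and in Ptprc together.

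Single libraries stood out elsewhere. In CD44+ cells Spock2 (178 CPM), Zfp36 (739.8 CPM), and the AT1 sum (8223 CPM) and mesothelial sum (237 CPM) were high in animal 8, whose NRF2 sum was low (3780 CPM). Animal 1 was high in Col1a1 (352 CPM) and the basal sum (653 CPM), and animal 7 was low in the Notch sum (948 CPM). Among CD44- libraries, Notum was high (28.5 CPM) and Pdgfra low (10.8 CPM) in animal 7, Axl was high in animal 2 (3.83 CPM), Sfn was low in animal 1 (35.3 CPM), and the dendritic sum (3546 CPM) and MHC class II sum (5482 CPM) were low in animal 8.

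The CD44 contrast differed between R26 and OG for 2806 genes with the larger change in R26 and 1019 in OG (edgeR quasi-likelihood test). The largest positive differences at a mean of at least 4 log2 CPM, R26 minus OG on the log2 scale, were Ighg2b 6.19, Tnxb 3.38, Hhip 3.25, Slc7a11 3.003, Jchain 2.84, Igkc 2.76, Dcn 2.72 and Thbd 2.47. The call of Jchain was lost in 13 of 28 alternatives. The largest negative ones were Slc7a2 -1.64, Rgs16 -1.55, Tgfbi -1.48, Muc5b -1.38, Tnfrsf23 -1.36, Lpl -1.36, Dynlrb2 -1.33 and Cd24a -1.26.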

How the results depend on the processing

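The excess of increases over decreases in R26 cells held in every alternative run. Called higher and lower genes (2646 and 1353) became 1588 and 884 with at least 50 counts in 4 libraries, 3127 and 2158 with the replicate block, 1553 and 7 with a 1.5-fold minimum, and 3357 and 2393 with all 16 libraries. Leaving out 1 library gave 2424 to 3023 higher and 973 to 1962 lower, and leaving out both libraries of an animal 2062 to 2698 higher and 647 to 1571 lower. Differences from OG (2806 larger in R26, 1019 in OG) became 2275 and 1460 with DESeq2 size factors, 2384 and 1521 with its Wald test, 3525 and 1449 with the replicate block, and 613 and 55 with a 1.5-fold minimum. Without 1 library the counts were 1651 to 2865 and 824 to 2419, and without both libraries of an R26 animal 1594 to 1921 and 1595 to 2191; there the share larger in R26 was 46.7% to 50%, against 73.4%. The cause was not tested. Epcam (-0.02) was 0.0145 with at least 50 counts, and between -0.0646 and 0.00621 with libraries left out, the highest without the CD44+ library of animal 8. Of 361 named genes 206 kept their call in every setting, and of 16 named differences 9 did. Most often lost were the calls of S100g and Fzd6 (13 of 21 settings each), Asns and Cbr2 (12 each), Bmp4 (11) and Ces1d (10). Cldn3, Me1, Spred1 and Tap2 followed (9 each). Among the differences it was that of Jchain (13 of 28, highest adjusted p 0.125). Beside the values given in the report, the replicate block changed no call of a named gene. Genes at a few counts per library are limited by depth: 3 counts were at most 0.333 CPM.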
